A study of Mus musculus with 12 samples.

Results

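The 35 genes described here encode structural proteins of the extracellular matrix: collagens, laminins, nidogens, perlecan, fibronectin, elastic fiber proteins and matrix glycoproteins. They were taken as a fixed list of symbols and looked up in 2 deposited count tables of 39017 genes each, and all 35 matched 1 row in both tables. RNA was measured by sequencing after depletion of ribosomal RNA in 4T1, a transplantable line of triple-negative mouse mammary carcinoma. The control-labelled cultures (3 samples titled VC, with the genotype POGZ WT) and the knockout-labelled cultures (3 samples, genotype POGZ KO) were grown in DMEM with 10% FBS and lysed at 75% confluency. The control-labelled tumors (3 samples, POGZ WT) and the knockout-labelled tumors (3 samples, POGZ KO) came from 50k such cells inoculated into BALB/c mice aged 8 weeks, at a mammary fat pad, and were flash frozen after growing for 28 days. The labels do not expand VC and do not say how the knockout was made, whether it is 1 clone, or whether the 3 samples of a group came from separate cultures, so p-values measure the spread between these samples, which may be technical for the cultures. Whole tumors hold carcinoma cells and cells of the mouse, both of mouse sequence, and more cells of a type and more RNA per cell cannot be told apart in them.

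The extracellular matrix has 2 main forms. The basement membrane is a thin sheet under epithelia and around vessels, built from laminin trimers and a network of type IV collagen that nidogens and perlecan tie together. The interstitial matrix lies between cells and is made of collagen fibrils, fibronectin and elastic fibers. In mammary carcinoma, fibroblasts are the known main source of fibrillar collagen, while carcinoma cells are known to make laminins and fibronectin of their own. POGZ, the protein that the knockout label names, is a chromatin protein with zinc fingers and a partner of HP1 in heterochromatin.

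Total counts ran from 14724518 to 21863223 in the cultures and from 4712001 to 13043831 in the tumors, where the 3 control-labelled libraries were the shallower ones. The 35 genes took 0.441 to 0.459% of the counts in control-labelled cultures, 0.548 to 0.566% in knockout-labelled cultures, 1.62 to 2.32% in control-labelled tumors and 1.76 to 2.44% in knockout-labelled tumors. Pogz RNA itself was higher in the knockout-labelled cultures (log2 fold change 0.45 ± 0.04 (SE), adjusted p 3.66e-06 by edgeR), against the direction its label names, and 0.11 ± 0.20 in the tumors. The RNA does not check the protein, and all directions are those between libraries as labelled. Of the 11 fibroblast markers, 4 to 6 had counts in each culture, most of those counts from Pdgfra, and 4 (Dcn, Lum, Dpt and Thy1) had no count in any of the 6 cultures.

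Levels are given as CPM, counts scaled to the same total in each library, and, to compare genes with each other, as CPM per kb of exon. In the control-labelled cultures, the highest of the 35 per length was Lamb1, a laminin beta chain, at 70.8 CPM per kb. Fn1 (fibronectin) followed at 66.1 CPM per kb, then Lama5 (a laminin alpha chain) at 55.9, Lamc1 (the common laminin gamma chain) at 47.6 and Col4a2 (a chain of type IV collagen) at 39.9 CPM per kb. Of these 5, 4 encode basement membrane proteins. In each culture group, 17 of the 35 genes reached 5 CPM, while 14 in the control-labelled and 15 in the knockout-labelled cultures stayed under 1 CPM. The low genes included 4 of the 6 fibrillar collagen chains and the 3 chains of collagen VI: the group means of Col1a2, Col3a1, Col5a2, Col5a3, Col6a1, Col6a2 and Col6a3 lay between 0 and 0.637 CPM in the cultures, against 53.6 to 58.9 CPM of Col5a1 in the control-labelled cultures.

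**Figure D1:**
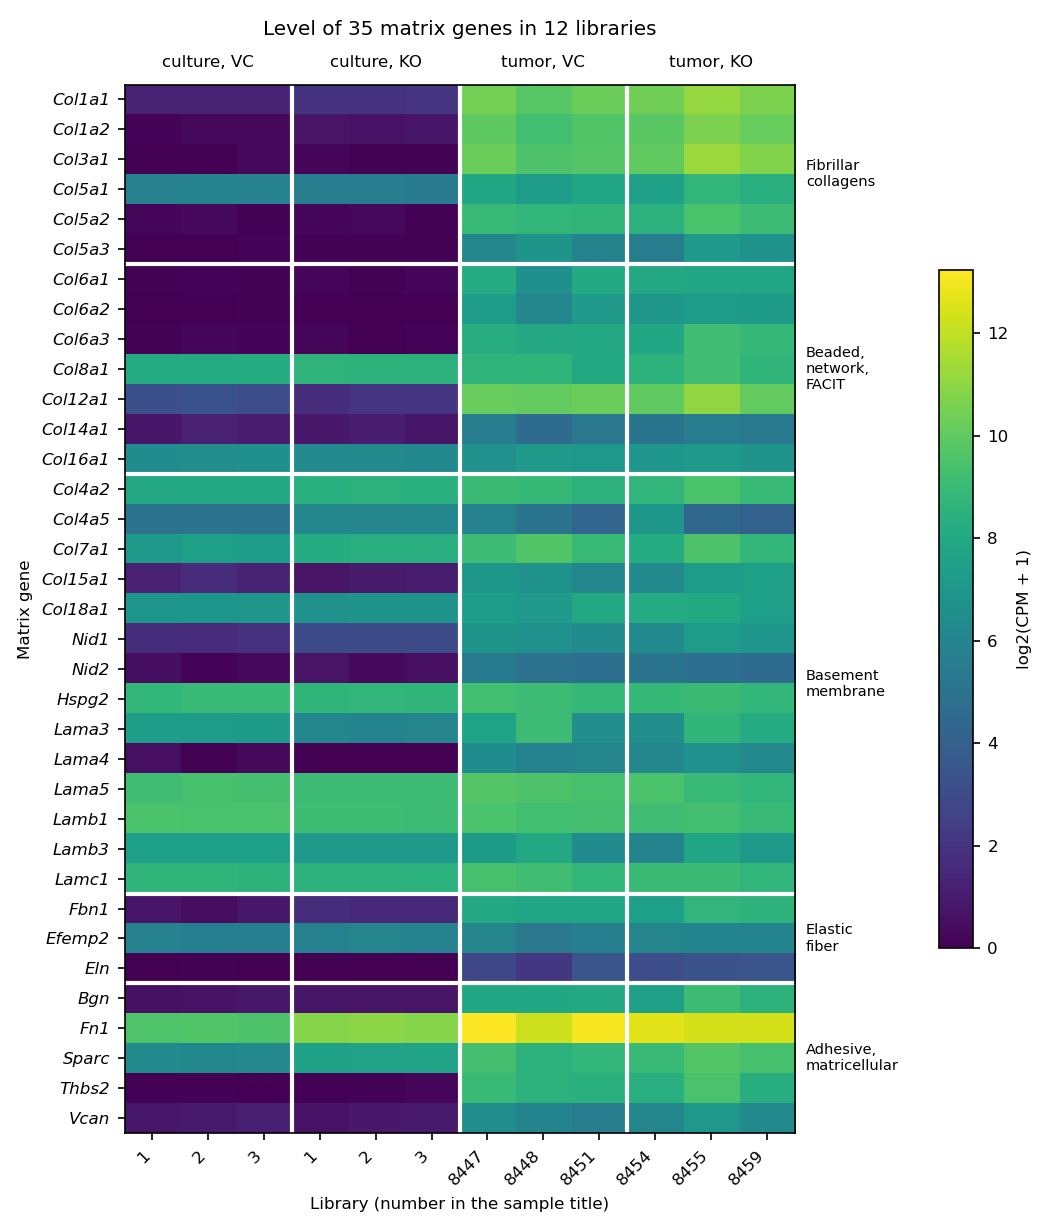
Heat map of the level of the 35 matrix genes (rows, grouped by role) in the 12 libraries (columns, named by the number in the sample title), as log2(CPM + 1). Basement membrane genes such as Lamb1 and Lama5 and the gene Fn1 are bright in all 12 libraries, while fibrillar collagens such as Col3a1 are dark in the cultures and bright in the tumors.

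In the cultures, matrix genes changed in both directions. RNA of Fn1, Sparc, Nid1, Fbn1, Col4a5, Col7a1 and Col1a1 rose 1.88 to 3.23-fold in the knockout-labelled cultures, and RNA of Col12a1, Lama3 and Col15a1 fell. All 5 laminin chains among the 35 genes with enough counts to test (Lama3, Lama5, Lamb1, Lamb3 and Lamc1) fell, 4 of them by 0.33 or less on the log2 scale. By edgeR's quasi-likelihood test with Benjamini-Hochberg adjustment over 15705 genes, called at an adjusted p under 0.05, 24 of the 35 genes could be tested, 10 rose and 11 fell. Over all genes tested, 23% were called higher and 24.9% lower, so calls were common in this comparison. The median log2 fold change of the 24 genes was -0.12, against -0.01 for all genes. The groups did not overlap for 9 of the 24 on the higher side and 11 on the lower side, where all genes gave 25.8% and 29.8%. Not called were Bgn (biglycan, a small proteoglycan), Col14a1 (a fibril-associated collagen) and Vcan (versican, a large proteoglycan), each under 1.3 CPM in every culture. Too low to test were Col1a2, Col3a1, Col5a2, Col5a3, Col6a1, Col6a2, Col6a3, Eln, Lama4, Nid2 and Thbs2.

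**Figure D2:**
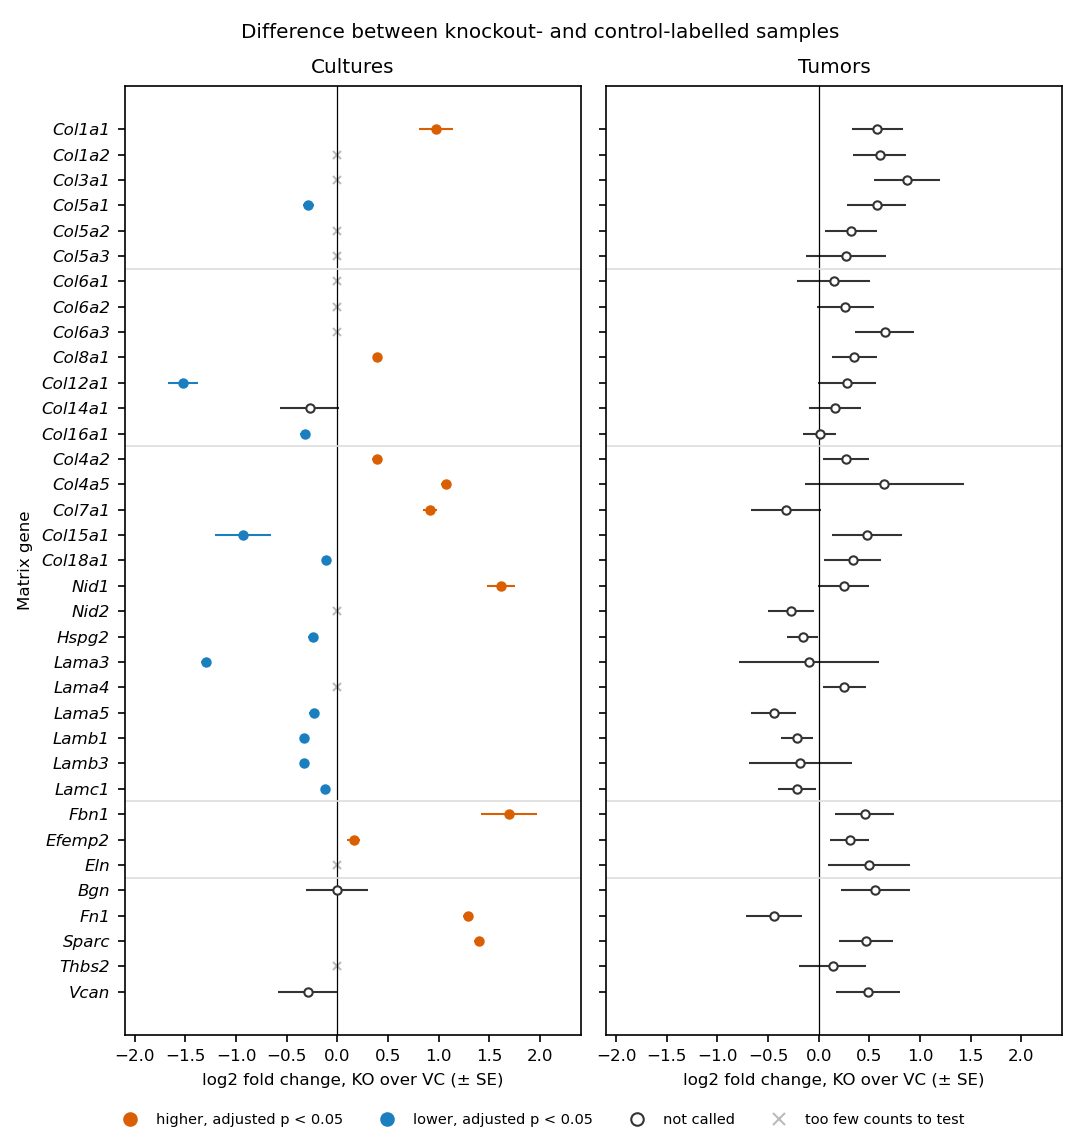
Log2 fold change, knockout-labelled over control-labelled, of each matrix gene in the cultures (left) and the tumors (right), with the SE as a bar. Filled points passed an adjusted p under 0.05, open points did not, and crosses mark genes with too few counts to test. The 21 filled points all lie in the culture panel, the lowest at -1.52 (Col12a1) and the highest at 1.69 (Fbn1).

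Fn1 encodes fibronectin, a dimeric glycoprotein that cells assemble into fibrils through integrins, and it was the most abundant of the genes that rose. It stood at 785, 799 and 733 CPM in the control-labelled cultures and at 1848, 1934 and 1849 CPM in the knockout-labelled ones. All 3 knockout-labelled values lay above all 3 control-labelled values, with a log2 fold change of 1.29 ± 0.05 (SE, adjusted p 8.2e-10). Its exons overlap those of Apol7d on the opposite strand, and the strand setting of the counting is not known. Per length, Fn1 reached 161 CPM per kb in the knockout-labelled cultures and was the highest of the 35 genes there. Sparc encodes a secreted glycoprotein that binds collagen and modulates cell adhesion. Its values were 78.0, 70.4 and 73.5 CPM in the control-labelled and 189.5, 196 and 195 CPM in the knockout-labelled cultures. This was a 2.63-fold rise (adjusted p 4.15e-10), with no overlap. Of the other genes of this role, Thbs2 (thrombospondin 2) had at most 3 counts in any culture.

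In the basement membrane group, 12 of the 14 genes were tested, 4 rose and 8 fell. Nid1 encodes nidogen-1, the linker between the laminin and type IV collagen networks. It rose from 2.31, 2.09 and 2.65 CPM to 6.90, 7.54 and 7.14 CPM, without overlap, a log2 fold change of 1.61 ± 0.14 (adjusted p 1.17e-06) that rests on 39 to 49 counts per control-labelled library. Its paralog Nid2 stayed between 2 and 11 counts per culture. Col4a5, a type IV collagen chain on the X chromosome, rose from 31.7, 31.8 and 32.3 CPM to 69.1, 65.1 and 66.1 CPM (1.07 ± 0.05, adjusted p 6.04e-09). Col7a1, the collagen of the anchoring fibrils that fix epithelium to the tissue below, rose from 144, 182 and 171 CPM to 298, 322 and 311 CPM (0.91 ± 0.07, adjusted p 4.33e-07). Col4a2 rose less, by 0.39 ± 0.04, from 257 to 274 CPM up to 335 to 357 CPM.

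The 5 tested laminin chains of the list fell. Lamb2, a laminin beta chain outside the 35 genes, rose, from 57.4 ± 0.6 to 71.0 ± 1.2 CPM (SD, n = 3), a log2 fold change of 0.32 ± 0.04 (SE). Lama3 encodes a laminin alpha chain of epithelial hemidesmosomes, and Lamb3 encodes the beta chain it assembles with. The values of Lama3 were 167, 157 and 149 CPM in the control-labelled and 65.5, 62.1 and 64.0 CPM in the knockout-labelled cultures, a log2 fold change of -1.29 ± 0.05 (adjusted p 1.3e-09). Lamb3 fell less, from 177 to 180.0 CPM down to 141 to 142 CPM (-0.33 ± 0.04, adjusted p 1.05e-05). The ratio of Lamb3 to Lama3 per length was 1.84 ± 0.09 (SD, n = 3) in the control-labelled and 3.60 ± 0.10 in the knockout-labelled cultures, so the RNAs of these partner chains changed unequally. Lamb1 went from 717, 696 and 694 CPM to 560.1, 560.2 and 542 CPM (-0.33 ± 0.04, adjusted p 1.74e-05). Lama5 went from 588, 669 and 652 CPM to 534, 547 and 537 CPM (-0.23 ± 0.05, adjusted p 0.00172). Lamc1 went from 404, 398 and 379 CPM to 363, 362 and 356 CPM (-0.12 ± 0.04, adjusted p 0.0212), which was among the smallest changes called. Hspg2 (perlecan, -0.24 ± 0.05) and Col18a1 (the precursor of endostatin, -0.11 ± 0.04) also fell, by at most 0.24. The call of Col18a1 was lost under 11 of 17 alternatives, among them DESeq2 (adjusted p 0.113) and each fit that left out 1 culture. The call of Lamc1 was lost under 8, among them each fit that left out 1 culture other than control-labelled culture 3. With chromosome medians taken out, its value was 0.00 ± 0.04 and the call was lost as well. Col15a1, a basement-membrane-associated collagen, fell by 0.93 ± 0.28 (adjusted p 0.015) from 1.35, 2.25 and 1.51 CPM to 0.637, 0.951 and 1.05 CPM, which are 24 to 42 and 11 to 23 counts. Its adjusted p was 0.083 without control-labelled culture 2 and 0.0694 without knockout-labelled culture 1.

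Of the other collagens, Col12a1, a fibril-associated collagen that links fibrils to other matrix, fell furthest of all 24 genes. Its values were 8.35, 8.96 and 7.62 CPM in the control-labelled and 2.20, 3.06 and 3.29 CPM in the knockout-labelled cultures, a log2 fold change of -1.52 ± 0.15 (adjusted p 3.92e-06). Col8a1, a short-chain network collagen, rose by 0.40 ± 0.04 from 282, 285 and 296 CPM to 389, 377 and 364 CPM. Col16a1, another fibril-associated collagen, fell by 0.32 ± 0.05. Among the fibrillar collagens, Col1a1, the major chain of type I collagen, rose by 0.97 ± 0.17 (adjusted p 0.000456), but from 1.46 to 1.52 CPM up to only 2.90, 2.78 and 3.06 CPM. Col5a1 fell by 0.29 ± 0.05, and the summed CPM of the 6 fibrillar genes, nearly all of it Col5a1, went from 55.4 to 60.9 down to 48.6 to 51.7. Of the elastic fiber genes, Fbn1 (fibrillin-1, the main microfibril protein) rose by 1.69 ± 0.28 (adjusted p 0.000294) from 0.677, 0.375 and 0.810 CPM to 2.38, 1.83 and 1.83 CPM. These are 7 to 15 and 27 to 41 counts per library. Efemp2 (fibulin-4) had overlapping groups and an adjusted p of 0.0499 for a change of 0.16 ± 0.06, and lost its call under 10 of 17 alternatives, among them the fits without control-labelled culture 2 or 3 or knockout-labelled culture 2 or 3 (adjusted p 0.059 to 0.236).

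The median log2 fold change of chromosome 4 in the cultures was -0.28, and its tested members Hspg2, Col15a1 and Col16a1 all fell. On chromosome 1, with a median of -0.12, Lamb3 and Lamc1 fell and Fn1 rose. On chromosome 2, with a median of 0.25, Lama5 and Col5a1 fell and Fbn1 rose. On chromosome 10, with a median of 0.14, Col18a1 fell. When each chromosome's median was taken out, 7 of the 35 genes rather than 11 were called lower. Col15a1 (adjusted p 0.0821) and Col16a1 (0.579) lost their call, and Hspg2 and Lamc1 had log2 fold changes of 0.04 and 0.00. Lama5, Col5a1 and Col18a1 kept their call in that fit and fell further, to -0.48, -0.53 and -0.25. In a test against a fold change of 1.2, the fallen genes were 2, Col12a1 and Lama3.

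The start regions of 4 of the genes that changed are shown for context, chosen among the members with large culture changes whose window lies wholly or mostly before annotated exons. They come from RefSeq on GRCm38.p6, which is not the BALB/c strain of these cells, and give up to 250 bases before the gene's start, ending where an exon begins, which leaves out the last 51 bases of the Nid1 window and 34 of the Col4a5 window. All 4 are on the plus strand, 5′ to 3′. Capitals mark matches, on either strand, to the CCAAT box, to the GC box GGGCGG, or to CAGACA, the SMAD-binding element. Col15a1, the gene that fell, had no match to any of the 7 motifs searched in its window.
Nid1, rose, chr13:13437352-13437550: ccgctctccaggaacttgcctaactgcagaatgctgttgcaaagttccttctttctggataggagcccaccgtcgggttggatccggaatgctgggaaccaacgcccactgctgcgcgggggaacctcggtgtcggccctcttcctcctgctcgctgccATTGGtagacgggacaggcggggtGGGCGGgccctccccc
Col4a5, rose, chrX:141475169-141475384: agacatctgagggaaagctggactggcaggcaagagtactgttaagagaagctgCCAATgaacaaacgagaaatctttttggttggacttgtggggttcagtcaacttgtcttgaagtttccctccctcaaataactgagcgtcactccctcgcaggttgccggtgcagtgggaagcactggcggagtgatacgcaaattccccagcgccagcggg
Col7a1, rose, chr9:108953336-108953585: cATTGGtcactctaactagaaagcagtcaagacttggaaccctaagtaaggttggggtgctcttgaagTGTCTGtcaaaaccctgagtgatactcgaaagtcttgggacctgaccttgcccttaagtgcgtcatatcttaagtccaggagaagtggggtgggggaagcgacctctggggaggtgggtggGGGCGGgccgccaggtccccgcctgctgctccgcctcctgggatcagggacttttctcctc
Col15a1, fell, chr4:47207762-47208011: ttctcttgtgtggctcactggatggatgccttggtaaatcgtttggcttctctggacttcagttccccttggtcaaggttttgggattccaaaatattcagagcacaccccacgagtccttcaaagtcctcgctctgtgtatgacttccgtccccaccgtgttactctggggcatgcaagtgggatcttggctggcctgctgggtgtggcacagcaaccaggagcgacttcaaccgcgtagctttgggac

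Windows of the same kind matched 25 of the 35 genes, in 30 windows, among 32851 windows in the table. The GC box was found in 21 of the 30 (70%), against 32.7% of all windows. The CCAAT box was found in 36.7% against 33.9%, and CAGACA in 30% against 17.1%. The TATA box TATAAA was found in 6.67% against 12.4% and the AP-1 motif TGANTCA in 3.33% against 6.75%. The motifs TGACGTCA and GTCTAGAC were in none of the 30, and in 1.55% and 0.167% of all. A match is a description of the letters and says nothing of a bound factor.

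In the tumors, the matrix genes stood far above the cultures for most roles. In control-labelled tumors, 27 of the 35 genes were higher than in control-labelled cultures and 0 lower, against 35.7% and 29.5% of 17123 genes. In knockout-labelled tumors, 28 were higher than in knockout-labelled cultures and 0 lower, against 35.3% and 26% of 17311 genes. The median log2 fold change of the 35 genes was 5.39 and 5.63, against 0.07 and 0.13 for all genes. Only 24 of the 35 had enough counts to be tested in the cultures alone. The others entered these comparisons through their tumor counts. They could be called only higher, so the counts and medians above were in part fixed by the filter. Of the 35, 26 were called in both comparisons. All 6 fibrillar collagens, 6 of the 7 beaded, network and fibril-associated collagens and all 5 adhesive and matricellular genes were higher with both labels. With the control label, the edgeR calls of Col16a1 (adjusted p 0.0233) and Col18a1 (adjusted p 0.0385) were each lost under 7 of 15 alternatives. With the knockout label, the call of Col4a2 (adjusted p 0.0133) was lost under 3 of 15. The mean of each of the 35 genes reached 5 CPM in both tumor groups, with the lowest being Eln at 6.51 ± 3.47 CPM (SD, n = 3) with control and 9.20 ± 1.38 with knockout label.

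The order of the genes changed with it. In control-labelled tumors, Fn1 was highest per length at 668 CPM per kb, followed by Col1a1 at 178, Sparc at 127, Col3a1 at 96.0 and Col12a1 at 75.9 CPM per kb. In knockout-labelled tumors Fn1 stood at 490, Col1a1 at 265, Sparc at 175, Col3a1 at 175 and Col1a2 at 97.7 CPM per kb. Type I collagen is a heterotrimer of Col1a1 and Col1a2 chains. The ratio of Col1a1 to Col1a2 per length was 2.64 to 2.85 in control-labelled and 2.61 to 2.80 in knockout-labelled tumors, a narrow range over the 6 libraries although the level of each differed. Genes at or under the floor of 3 counts per library in the cultures have no fitted fold change that can be taken at its size. With 0 counts in all 3 knockout-labelled cultures, Col6a2 was at least 840-fold higher in the tumors of that label, Lama4 (the laminin alpha chain of vessels) at least 478-fold and Eln (elastin) at least 53.6-fold.

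Not called between tumors and cultures with either label were Lamb1, Lamb3, Lama5, Col4a5, Col8a1 and Efemp2, with log2 fold changes between -0.23 and 0.31. Lamb1 was at 694 to 717 CPM in control-labelled cultures and at 709, 611 and 638 CPM in control-labelled tumors, which overlap. Lamc1 was higher in tumors with both labels, by 0.51 ± 0.15 and 0.47 ± 0.10, the first with an adjusted p of 0.0519 without control-labelled culture 2 and 0.0584 without culture 3. Hspg2 was called with the knockout label (0.26 ± 0.08, adjusted p 0.0296) and not with the control label (0.13), and that call was lost under 10 of 15 alternatives, among them the fit without any 1 of the 3 knockout-labelled cultures, KO_8455 or KO_8459. Lama3 was called with the knockout label (2.08 ± 0.48, adjusted p 0.00846), and with the control label when VC_8451 was left out (1.22 ± 0.37, adjusted p 0.0283). Col7a1 was called with the control label (1.89 ± 0.20, adjusted p 8.42e-05), and with the knockout label when KO_8454 was left out (0.94 ± 0.20, adjusted p 0.00687) and with all 12 samples in 1 fit (adjusted p 0.0438). None of these 3 genes passed the test of the difference between labels. Without tumor KO_8454, Lama5 (-0.22 ± 0.07) and Col4a5 (-1.84 ± 0.10) were lower in knockout-labelled tumors than in cultures, and without tumor VC_8448, Lamb3 was lower in control-labelled tumors (-0.67 ± 0.19). Col8a1 was higher without VC_8451 in control-labelled tumors (0.43 ± 0.09) and without KO_8454 in knockout-labelled ones (0.39 ± 0.13).

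Fibroblast, vessel and immune markers moved with this comparison. The summed level of the fibroblast list was 26.3 to 29.3 and 16.1 to 17.6 CPM in control- and knockout-labelled cultures and 242 to 524 CPM in tumors. The endothelial list was at 38.0 to 51.3 CPM in cultures and 313 to 487 CPM in tumors, and the list of pericytes and smooth muscle at 4.62 to 6.38 and 189 to 316 CPM. The part of these cells in the levels was not tested.

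Between knockout- and control-labelled tumors, no matrix gene passed the test. Of 17153 genes tested, 0% were called higher and 0% lower by edgeR, and 956 had an unadjusted p under 0.05. Of the 35 members, 0 were called by edgeR, DESeq2 or limma-voom, and 1 had an unadjusted p under 0.05 in edgeR, 4 in DESeq2 and 3 in limma-voom. DESeq2 called 26 genes higher and 40 lower over the whole table. For 0 of the 35 genes were the 2 tumor groups free of overlap, against 4.96% of all genes on the higher side and 5.43% on the lower side. The log2 fold change was above 0 for 26 genes and below 0 for 9, with a median of 0.27, against 0.02 for all genes.

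The fibrillar collagens spread within both tumor groups. Col3a1, the chain of type III collagen, was at 1247, 741 and 838 CPM in tumors VC_8447, VC_8448 and VC_8451, and at 1032, 2422 and 1692 CPM in tumors KO_8454, KO_8455 and KO_8459. Its log2 fold change of 0.87 ± 0.33 (unadjusted p 0.0303, adjusted p 0.861) was the highest of the 35 genes. Col1a1 was at 1407, 887 and 1218 CPM against 1343, 2279 and 1605 CPM (0.58 ± 0.25). Col1a2 was at 1007, 591 and 809 CPM against 908, 1568 and 1167 CPM (0.60 ± 0.26). For each of these 3, tumor KO_8455 was the highest and VC_8448 the lowest, and KO_8454 lay within the control-labelled range. The 6 fibrillar genes had log2 fold changes from 0.26 to 0.87, and their summed level was 4453, 2904 and 3544 CPM against 3869, 7551 and 5424 CPM.

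Collagen VI chains form beaded filaments around cells. Col6a3 was at 304, 253 and 249 CPM against 243, 575 and 444 CPM (0.65 ± 0.29), while Col6a1 was at 282, 97.9 and 277 CPM against 252, 248 and 226 CPM (0.15 ± 0.36). Tumor VC_8448 was thus far below the other 5 for Col6a1, and also the lowest for Col6a2 at 70.0 CPM against 126 to 161 in the others. Col12a1, low in the cultures, was at 1157, 1075 and 1236 CPM against 1036, 2134 and 1049 CPM. KO_8455 alone was above the control-labelled tumors, and KO_8454 and KO_8459 were below all of them. Col14a1 (23.7 to 48.4 CPM), Col8a1 (267 to 569.6 CPM) and Col16a1 (102 to 136 CPM) overlapped between the groups, with changes of 0.16, 0.35 and 0.01.

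Of the 14 basement membrane genes in tumors, 8 had values below 0 and 6 above. Fitted changes of Lama5 (-0.44 ± 0.22, adjusted p 0.861), Lamb1 (-0.21 ± 0.16) and Lamc1 (-0.22 ± 0.19) were below 0 and not called. Lama5 was at 829, 746 and 664 CPM against 723, 491 and 427 CPM, where only KO_8454 overlapped the control-labelled tumors. Lama3 and Lamb3 spread widely within both groups. Lama3 was at 202, 545 and 89.8 CPM against 91.8, 405 and 287 CPM, and Lamb3 at 147, 255 and 84.0 CPM against 61.8, 224 and 142 CPM. Tumors VC_8448 and KO_8455 were the 2 highest for both chains, and VC_8451 and KO_8454 the 2 lowest. The same 2 tumors were also highest for Col7a1, with 803 and 747 CPM against 289 to 534 CPM in the other 4. Col4a5 had another order, with 127 CPM in KO_8454, 55.0 and 32.6 CPM in VC_8447 and VC_8448 and 16.3 to 20.5 CPM in the other 3. Col18a1 was at 281 and 261 CPM in KO_8454 and KO_8455 and 263 CPM in VC_8451, against 142 to 174 CPM in the rest. Nid1 was at 114, 103 and 82.5 CPM against 77.2, 152 and 124 CPM (0.25 ± 0.25). Nid2 (23.9 to 44.8 CPM), Hspg2 (437 to 599 CPM), Col4a2 (363 to 711 CPM), Col15a1 (66.6 to 184 CPM) and Lama4 (58.3 to 104 CPM) also overlapped.

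Of the 5 adhesive and matricellular genes, 4 had values above 0 and Fn1 below. Fn1 was at 9686, 4890.3 and 8839 CPM against 6443, 5359 and 5374 CPM (-0.44 ± 0.28, adjusted p 0.864), with VC_8448 below all 3 knockout-labelled tumors. Sparc was at 646, 361 and 440.3 CPM against 491, 843 and 660.3 CPM (0.47 ± 0.27). Bgn was at 247, 237 and 256 CPM against 181, 538 and 368 CPM (0.56 ± 0.34), and Fbn1 at 251, 229 and 229.6 CPM against 178, 413 and 379 CPM (0.45 ± 0.29). For both, the control-labelled tumors lay close together, between the lowest and the other 2 knockout-labelled ones. Vcan (45.7 to 131 CPM, 0.49 ± 0.32), Thbs2 (298 to 699 CPM, 0.14 ± 0.33), Efemp2 (38.5 to 64.5 CPM, 0.30 ± 0.19) and Eln (3.36 to 10.3 CPM, 0.50 ± 0.40) overlapped as well.

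Of the 17 genes under 5 CPM in both culture groups, a limit chosen after values were seen, 16 were above 0 in the tumor comparison with a median of 0.45. Of the 18 genes at 5 CPM or more, 10 were above 0 and 8 below, with a median of 0.13. None of either set was called. Over all 17153 genes tested, 9042 were above 0 and 8111 below. The share among all genes under the same culture limit was not taken, so the 16 of 17 may not be particular to matrix genes. The fibroblast list summed to 271, 252 and 242 CPM in the control-labelled tumors and to 316, 524 and 401 CPM in the knockout-labelled ones, so its groups did not overlap. The lists of mammary luminal and milk genes, at 0.399 to 22.2 against 24.2 to 448 CPM, and of B and plasma cells, at 4.65 to 14.2 against 15.7 to 469 CPM, did not overlap either. Nor did the list of pericytes and smooth muscle, by a narrow margin, at 189 to 237.1 against 237.6 to 316 CPM. Of the 11 fibroblast genes taken singly, 2 were free of overlap on the higher side, against 4.96% of all genes, and 0 were called. The endothelial list, at 313 to 482 against 382 to 487 CPM, and the adipocyte list, at 6.78 to 52.6 against 26.5 to 158 CPM, overlapped. The list of carcinoma epithelium, at 1940 to 2453 against 1785 to 2076 CPM, overlapped too. So did the lists of macrophages and monocytes, neutrophils, T and NK cells, Schwann cells, skeletal muscle and skin keratinocytes. With the log2 level of the fibroblast list as a covariate, 29 of the 35 genes had a value below 0, the median was -0.34 and 0 were called. In these 6 tumors that level and the label go together, and their parts cannot be told apart. Without tumor KO_8455 the median over the 35 genes was 0.05 instead of 0.27, and without tumor KO_8454 it was 0.36, with 12 members and 2250 of all genes at an unadjusted p under 0.05 and 0 called.

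**Figure D3:**
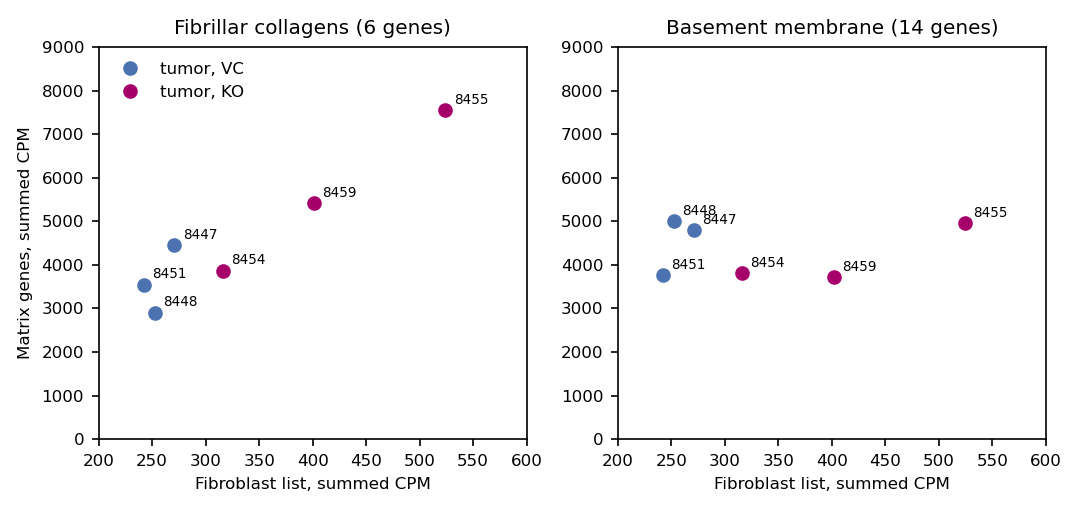
Summed CPM of the 6 fibrillar collagen genes (left) and of the 14 basement membrane genes (right) against the summed CPM of the 11 genes of the fibroblast list, for the 6 tumors, named by the number in the sample title. On the left, tumors KO_8455 and KO_8459 are highest on both axes and the 3 control-labelled tumors lie between 242 and 271 CPM of the list, while on the right the basement membrane sums lie between 3715 and 5009 CPM, with tumors VC_8447, VC_8448 and KO_8455 near the top.

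The effect of the label in tumors was tested against its effect in cultures as an interaction over all 12 samples. Of the 35 genes, 1 was higher in this test and 2 lower, against 1.13% and 0.912% of 18419 genes. Fn1 rose by 1.29 in the cultures and stood at -0.44 in the tumors, a difference of -1.73 ± 0.29 (adjusted p 0.00974). Nid1 rose by 1.61 in the cultures and stood at 0.25 in the tumors, a difference of -1.37 ± 0.31 (adjusted p 0.0454). Col12a1 fell by 1.52 in the cultures and stood at 0.28 in the tumors, a difference of 1.81 ± 0.36 (adjusted p 0.0259). Col7a1 (-1.23 ± 0.38, adjusted p 0.141) and Sparc (-0.93 ± 0.29, adjusted p 0.138) did not pass, nor did Lama3 (1.21 ± 0.78, adjusted p 0.501). Sparc passed without tumor VC_8448 (-1.10 ± 0.26, adjusted p 0.046), Col7a1 without tumor KO_8455 (-1.64 ± 0.29, adjusted p 0.0188) and Lama4 by DESeq2 (adjusted p 0.00812). The culture part of the Lama4 value rests on 13 counts over the control-labelled cultures and 0 over the knockout-labelled ones. The call of Fn1 held under all 20 alternatives tried, with adjusted p up to 0.0418. That of Col12a1 was lost under 10 of them and that of Nid1 under 14, among them each fit that left out 1 culture. This test and its alternatives used 1 estimate of the spread per gene for cultures and tumors, although cultures varied less. The spread of the tumors may thus be understated. With all 12 samples in 1 fit, the comparison of tumors called 16 genes higher and 48 lower, against 0 and 0 on the tumors alone. Without tumor KO_8454, 3 genes were higher and 4 lower in this test, adding Col5a1 (1.10 ± 0.22), Col15a1 (1.69 ± 0.44), Col4a5 (-1.99 ± 0.40) and Fbn1 (-0.95 ± 0.26). Over all genes the calls in that fit went from 209 to 800 higher and from 168 to 788 lower.

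**Figure D4:**
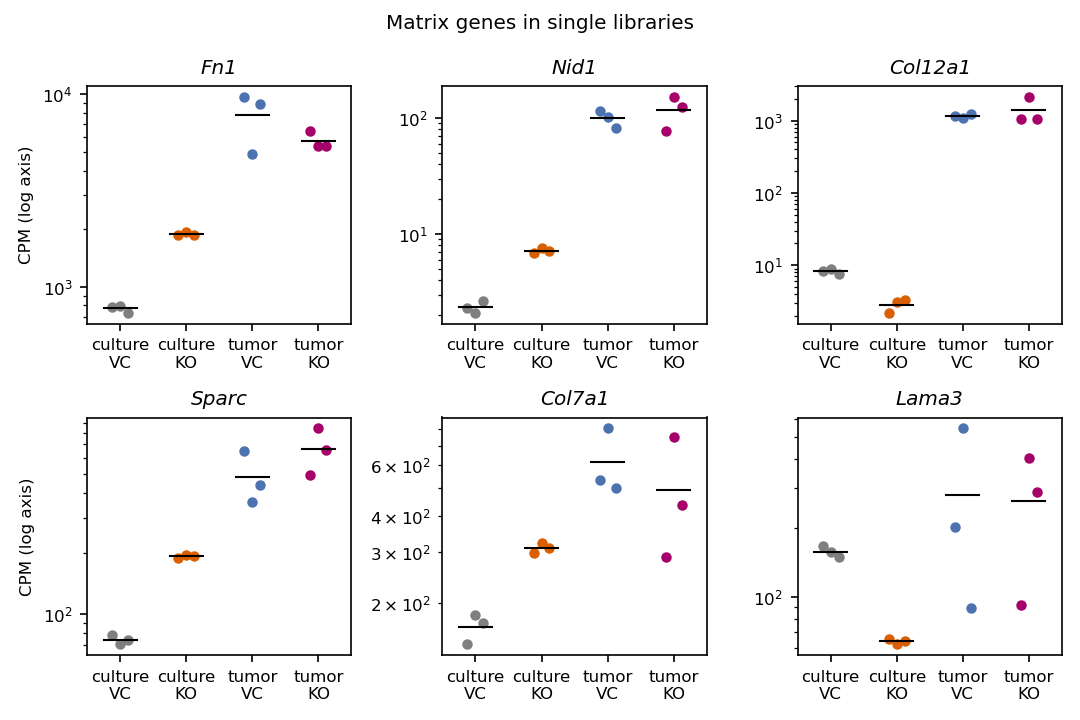
CPM (log axis) of 6 matrix genes in each of the 12 libraries, 1 point per library, with the group mean as a line. Fn1, Nid1, Sparc and Col7a1 are higher and Col12a1 and Lama3 lower in the knockout-labelled than in the control-labelled cultures without overlap, and the tumor groups of all 6 genes overlap.

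The genes that process matrix proteins, receive them or share the matrix with them also changed in both directions in the cultures, where 23% of all genes were called higher and 24.9% lower. Of 29 symbols of enzymes and chaperones of collagen folding, cleavage and crosslinking, 25 were found among the counted genes. Of these, 19 were tested, 7 rose (36.8%) and 8 fell (42.1%), with a median of 0.04. Loxl4, a lysyl oxidase that crosslinks collagen and elastin, rose by 0.88 ± 0.04, from 218 ± 4 to 399 ± 17 CPM (SD, n = 3). Ppib, a prolyl isomerase of collagen folding, fell by 0.50 ± 0.04, and Adamts14, a procollagen peptidase, fell by 0.71 ± 0.07. Of the matrix receptors, 23 of 29 were tested, 6 rose (26.1%) and 7 fell (30.4%), shares near those of all genes. Itgb6, the beta chain of an epithelial integrin that binds fibronectin, rose by 1.10 ± 0.04, from 55.4 ± 1.8 to 118 ± 2 CPM. Sdc1, a heparan sulfate proteoglycan of epithelial cells, fell by 0.96 ± 0.04, and Itga8, whose integrin binds nephronectin and fibronectin, fell by 2.74 ± 0.16 from 6.40 ± 0.28 to 0.949 ± 0.075 CPM. Of 46 other matrix proteins, 24 were tested, 8 rose (33.3%) and 10 fell (41.7%). Thbs1 (thrombospondin 1) rose by 1.19 ± 0.04, to 3058 ± 65 CPM, and Postn (periostin) by 2.01 ± 0.10, to 25.1 ± 0.7 CPM, while Fbln2 (fibulin-2) fell by 0.67 ± 0.04. In the tumors, 0 genes of these 3 lists were called. In the test of the difference, Adamts14 (1.22 ± 0.18), Itga8 (3.65 ± 0.41) and Itga1 (1.56 ± 0.29), a collagen-binding integrin chain, were higher and Postn (-1.99 ± 0.33) was lower.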

How the data were processed

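Per the labels' protocols, Qiagen columns gave the RNA of the 6 cultures and 6 tumors, and KAPA reagents with Ribo-Erase depletion gave the libraries. The authors deposited whole-number read counts per gene, not normalized, in 1 table for the cultures and 1 for the tumors. The genome mm10, featureCounts 1.4.4, STAR 2.3.0e and Trimmomatic 0.32 are named, per the submitters' processing notes. The annotation release and strand setting are not given in the sources used here. Without a known strand setting, reads of Efemp2, Nid2, Fn1, Col5a1, Eln, Lama3, Nid1, Col15a1, Col4a2 and Fbn1 cannot be told apart from those of genes on the opposite strand that overlap their exons in GENCODE M21.

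Counts were fitted in R 4.3.3 with edgeR 4.0.16 (filterByExpr, TMM, quasi-likelihood test), with Benjamini-Hochberg adjustment over all genes tested, and called at an adjusted p under 0.05. Cultures, tumors and the comparisons between them were fitted on their own 6 samples, and the difference of effects on all 12. Fits that hold both cultures and tumors used 1 estimate of the spread per gene for both, although cultures varied less. The SE was obtained by dividing the log2 fold change by the root of F. CPM were taken over the library total, and per kb of the exon union in GENCODE M21, which held 37693 of the 39017 gene IDs. A floor of 3 counts per library covers counting error alone. The culture and tumor fits were run on simulated counts drawn from the same kind of model that edgeR assumes. That run does not check the model itself, the difference test or the comparisons of tumors with cultures. The culture numbers 1 to 3 were not used as pairs: deviations of same-numbered samples correlated at -0.09, -0.01 and 0.04. These correlations cannot tell whether same-numbered samples were handled together. Alternatives used limma 3.58.1 (voom), DESeq2 1.42.0 and others given in the closing section. Python 3.11.15, pandas 2.3.3 and matplotlib 3.10.9 read tables and drew figures.

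The members and gene lists were chosen with earlier results of these data known. Genes with values in every sample were those changed at least 2-fold in the cultures, the smallest p of each role, the members called in the difference, and the 5 highest per length in a group. From each other list, up to 3 called genes of smallest p were named. Promoter windows were from RefSeq on GRCm38.p6.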

Additional observations from a re-analysis of the deposited data

Results flagged for a closer look

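For 3 matrix genes the effect of the knockout label differed between tumors and cultures by the interaction test of edgeR over all 12 samples. The tumor effect minus the culture effect was 1.81 on the log2 scale for Col12a1 (SE 0.36, adjusted p 0.0259), with 3 of 3 knockout-labelled cultures below all control-labelled ones. Of its knockout-labelled tumors, KO_8455 (2134 CPM) lay above all control-labelled ones (1075 to 1236 CPM). KO_8454 (1036 CPM) and KO_8459 (1049 CPM) lay below all of them. The difference was -1.73 for Fn1 (SE 0.29, adjusted p 0.00974) and -1.37 for Nid1 (SE 0.31, adjusted p 0.0454). Each of these 2 had 3 of 3 knockout-labelled cultures above the control-labelled ones and overlapping tumor groups. Of 20 alternatives, the call of Fn1 was lost under 0, that of Col12a1 under 10 and that of Nid1 under 14. For the last 2, each fit without 1 culture was among these. All 20 kept 1 estimate of the spread per gene for cultures and tumors, so none of them tests that choice. The tumors hold host cells that the cultures lack, and their part in these differences was not tested.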

How the results depend on the processing

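The counts of members called lower and higher in cultures were 11 and 10. They became 2 lower in a test against a fold change of 1.2, 7 lower with chromosome medians taken out, and 5 higher and 1 lower with all 12 samples in 1 fit. Calls over all genes moved too, from 3610 higher and 3913 lower to 1692 lower against a fold change of 1.2, 3219 lower with chromosome medians out and 663 higher and 838 lower with all 12 samples. With the chromosome medians out, the values of Hspg2 (0.0387, SE 0.0518) and Lamc1 (0.000657, SE 0.0389) lay within their SE of 0 and were not called. The replicate block of the culture numbers gave 9 higher and 11 lower and changed no other call than that of Efemp2 (adjusted p 0.0608). In the difference, the 1 higher and 2 lower members became 1 lower with RLE scaling, 2 higher with DESeq2, 0 higher and 1 lower with limma-voom and at an adjusted p of 0.01, and 1 lower against a fold change of 1.2. Leaving out each library gave 0 to 3 higher and 1 to 4 lower. Members lower in control-labelled tumors than cultures were 0 to 1 without each library, and in knockout-labelled ones 0 to 2, where the log2 fold change of Lama5 ranged from -0.22 to 0.13. In the comparison of tumors, 0 members were called under every alternative. The control-labelled tumors were shallower, at 4712001 to 8338828 counts, and with all tumor libraries thinned to the smallest total 0 members were called as well. In the cultures, 11 members had too few counts to be tested.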

Other observations

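Lama3, Lamb3 and Col7a1, which encode parts of the hemidesmosome and its anchoring fibrils, had their 2 highest tumor values in the same 2 tumors, VC_8448 and KO_8455. Itgb4, the integrin chain of the hemidesmosome, chosen after its values were seen, stayed between 269 and 326 CPM in the 6 tumors. The neutrophil list was highest in the same 2 tumors, with 585 and 716 CPM against 144 to 439.5 CPM in the other 4, and so was the skeletal muscle list, with 66.2 and 41.2 CPM against 8.16 to 23.3 CPM. Both were picked from all the cell type lists after their values were seen, and no other list was highest in these 2 tumors. The part of neutrophils and muscle was not tested.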
